A study of Mus musculus with 18 samples.

Results

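The interferon regulatory factors (IRFs) are transcription factors that share a DNA-binding domain and switch genes of the interferon response on or off. IRF3 and IRF7 are activated by phosphorylation downstream of pattern recognition receptors, including the lipopolysaccharide (LPS) receptor TLR4, and drive transcription of type I interferons. IRF9 is the DNA-binding part of the complex that carries the signal of secreted interferon to its target genes, IRF1 and IRF2 compete for the same elements as activator and repressor, and IRF5, IRF8 and IRF4 act mainly in myeloid and lymphoid cells. The 8 family genes described here, Irf1, Irf2, Irf3, Irf4, Irf5, Irf7, Irf8 and Irf9, were taken by their symbols, without regard to their values, from 2 tables of transcript abundance that each list 21441 genes. Of the 8, 7 passed the filter on low values in both, a mean above 1 FPKM (fragments per kilobase of transcript, normalized for sequencing depth) over 9 libraries, and Irf4 did not.

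RNA was sequenced from RAW264.7 cells, a line of mouse macrophages, and from liver of wild-type C57BL/6 male mice, with 3 libraries for each of 3 conditions in both. Macrophages were control cells, cells given LPS, or cells given LPS and 10 µM MIC-1, the moringa isothiocyanate-1 of Moringa oleifera. The study calls the control cells solvent controls. The LPS concentration and the time of harvest of the sequenced cultures are not given in the sources used here, and the sample labels of the macrophage libraries carry the mouse doses instead. Mice received saline, or LPS at 10 mg/kg into the peritoneum, or that LPS dose after 3 days of oral MIC-1 at 80 mg/kg in 10% DMSO. The study describes gavage with either MIC-1 or vehicle over those 3 days, and calls its saline group a vehicle control (10% DMSO). Tissue was collected 16 h after the injection. All macrophage libraries came from a single cell line, no group received MIC-1 without LPS, the sources differ on whether mice received purified MIC-1 or a seed extract dosed by its MIC-1 content, and whole liver RNA mixes hepatocytes with resident and recruited cells.

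The identity of the samples was checked first. Hepatocyte markers summed to 35360 to 81570 FPKM in liver and to 2.48 to 13.3 FPKM in the macrophages, and 5 macrophage markers summed to 9452 to 11510 FPKM in the macrophages and to 19.9 to 73.0 FPKM in liver. The neutrophil marker S100a8 read 652 to 718 FPKM in macrophages with LPS and MIC-1 and at most 39.2 FPKM in the others, while its partner S100a9 stayed at or below 0.482 FPKM. Depth was estimated from the smallest steps between values and a transcript length for each gene. With the median length it was 11.7 to 15.4 M reads per macrophage library, 3.18 to 7.5 M in control livers and 8.82 to 14.0 M in treated livers. With the longest transcript it was 18.7 to 24.2 M, 4.75 to 10.8 M and 12.4 to 19.3 M. The table headers carry no replicate numbers, so libraries are numbered here by their order within a condition. Macrophage LPS library 2 stood apart from its group. Its median absolute log2 difference from the control mean was 0.129 over the tested genes, while it was 0.744 and 0.738 for LPS libraries 1 and 3. In each macrophage condition libraries 1 and 3 were the closest pair, at 0.067 to 0.091, and in treated livers too library 2 lay farther from libraries 1 and 3 (0.35 to 0.552) than these lay from each other (0.112 and 0.162). Among control livers library 1 lay apart, at 0.427 and 0.477 from libraries 2 and 3, which were at 0.196 from each other. The study's methods describe its macrophage comparisons with fewer LPS replicates than the table holds and do not say which was left out, so the label of LPS library 2 could not be checked. All 9 libraries entered the fits, and family results in macrophages are also given without LPS library 2 where it changes a call or a direction, which leaves 2 LPS libraries. Library 2 was singled out by its closeness to the controls in these same values. Leaving it out therefore favors larger differences between LPS and control and smaller p-values. Calls and p-values without it are descriptive.

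The 8 genes lie on 6 chromosomes of the mm9 assembly (NCBIM37), the assembly whose transcripts were quantified. Irf3 occupies chr7:52253018-52258218 on the plus strand and overlaps Bcl2l12 on the minus strand. Irf7 occupies chr7:148448605-148452380 on the minus strand and overlaps Phrf1 on the plus strand. Irf8 occupies chr8:123260258-123280594, overlapping Gm20388, Irf2 chr8:47825099-47932812, Irf1 chr11:53583516-53591876, overlapping Gm17334, Irf4 chr13:30841095-30858796, Irf5 chr6:29476625-29491869, where it overlaps Tnpo3 on the minus strand, and Irf9 chr14:56222408-56228867, where it overlaps Rnf31 on the same strand, and all 6 are on the plus strand. Whether the libraries kept strand is not given in the sources used here, so reads of such overlaps cannot be told apart from the named gene.

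Because Irf1, Irf2, Irf3, Irf7 and Irf8 carry most of the differences described below, the 250 bases upstream of their annotated starts are shown, from RefSeq on GRCm38.p6, 5′ to 3′ in the direction of transcription. Capitals mark matches, on either strand, to an interferon-stimulated response element (ISRE, searched as GAAA, any 2 bases and GAAA), the element bound by IRFs themselves, to a gamma-activated site (GAS, TTCNNNGAA), bound by STAT dimers, or to the NF-κB motif. Where RefSeq lists a further start (Irf1, Irf8), the upstream one is shown, and the other held no match.
Irf7 (chr7:141266425-141266674, minus strand): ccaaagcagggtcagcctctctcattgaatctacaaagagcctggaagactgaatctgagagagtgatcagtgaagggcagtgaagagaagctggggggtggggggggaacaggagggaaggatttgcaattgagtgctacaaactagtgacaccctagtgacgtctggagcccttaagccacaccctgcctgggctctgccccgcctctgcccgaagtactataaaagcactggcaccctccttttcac
Irf3 (chr7:44997398-44997647, plus strand): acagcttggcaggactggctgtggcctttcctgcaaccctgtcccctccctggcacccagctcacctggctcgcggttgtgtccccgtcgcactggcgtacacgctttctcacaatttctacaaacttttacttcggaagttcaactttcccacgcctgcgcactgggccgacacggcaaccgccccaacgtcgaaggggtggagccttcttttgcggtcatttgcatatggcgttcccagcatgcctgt
Irf8 (chr8:120736108-120736357, plus strand): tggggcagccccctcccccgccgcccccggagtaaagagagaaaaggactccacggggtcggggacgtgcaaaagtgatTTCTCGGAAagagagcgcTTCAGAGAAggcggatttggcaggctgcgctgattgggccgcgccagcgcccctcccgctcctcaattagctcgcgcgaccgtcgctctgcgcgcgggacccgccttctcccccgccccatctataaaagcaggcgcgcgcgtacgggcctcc
Irf1 (chr11:53769764-53770013, plus strand): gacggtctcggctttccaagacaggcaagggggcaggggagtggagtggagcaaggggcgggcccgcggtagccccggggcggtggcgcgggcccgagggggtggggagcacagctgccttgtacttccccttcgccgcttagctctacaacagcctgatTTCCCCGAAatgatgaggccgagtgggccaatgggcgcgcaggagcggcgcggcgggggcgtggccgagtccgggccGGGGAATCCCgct
Irf2 (chr8:46739495-46739744, plus strand): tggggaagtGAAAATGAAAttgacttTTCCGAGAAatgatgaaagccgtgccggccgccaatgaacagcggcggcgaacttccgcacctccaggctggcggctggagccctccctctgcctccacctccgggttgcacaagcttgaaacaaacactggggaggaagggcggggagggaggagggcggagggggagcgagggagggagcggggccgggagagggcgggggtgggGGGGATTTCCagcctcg

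Irf8 held 2 GAS matches, starting 171 and 153 bases before the gene start. Irf1 held 1 GAS match at 90 bases and 1 NF-κB match at 13 bases before its start. Irf2 was the only one of the 8 genes with all of the motifs, an ISRE match at 241, a GAS match at 224 and an NF-κB match at 17 bases before its start. The windows of Irf3, Irf4, Irf5, Irf7 and Irf9 held no match to these letters. Over all 32851 annotated mouse promoters of the same length, 2.98% held the ISRE, 7.02% the GAS and 7.25% the NF-κB letters. The matches describe sequence only, and no binding was measured.

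Irf7, which codes for the interferon-inducible amplifier of type I interferon production, was the most abundant family transcript in macrophages and the one with the widest range. It measured 292, 388 and 317 FPKM in the 3 controls, 1211, 376 and 1198 FPKM in LPS libraries 1 to 3, and 259, 145 and 257 FPKM with LPS and MIC-1. LPS libraries 1 and 3 were far above every other macrophage library, and LPS library 2 lay within the controls. In the plot of FPKM by library the whole family can be compared on one scale.

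**Figure D1:**
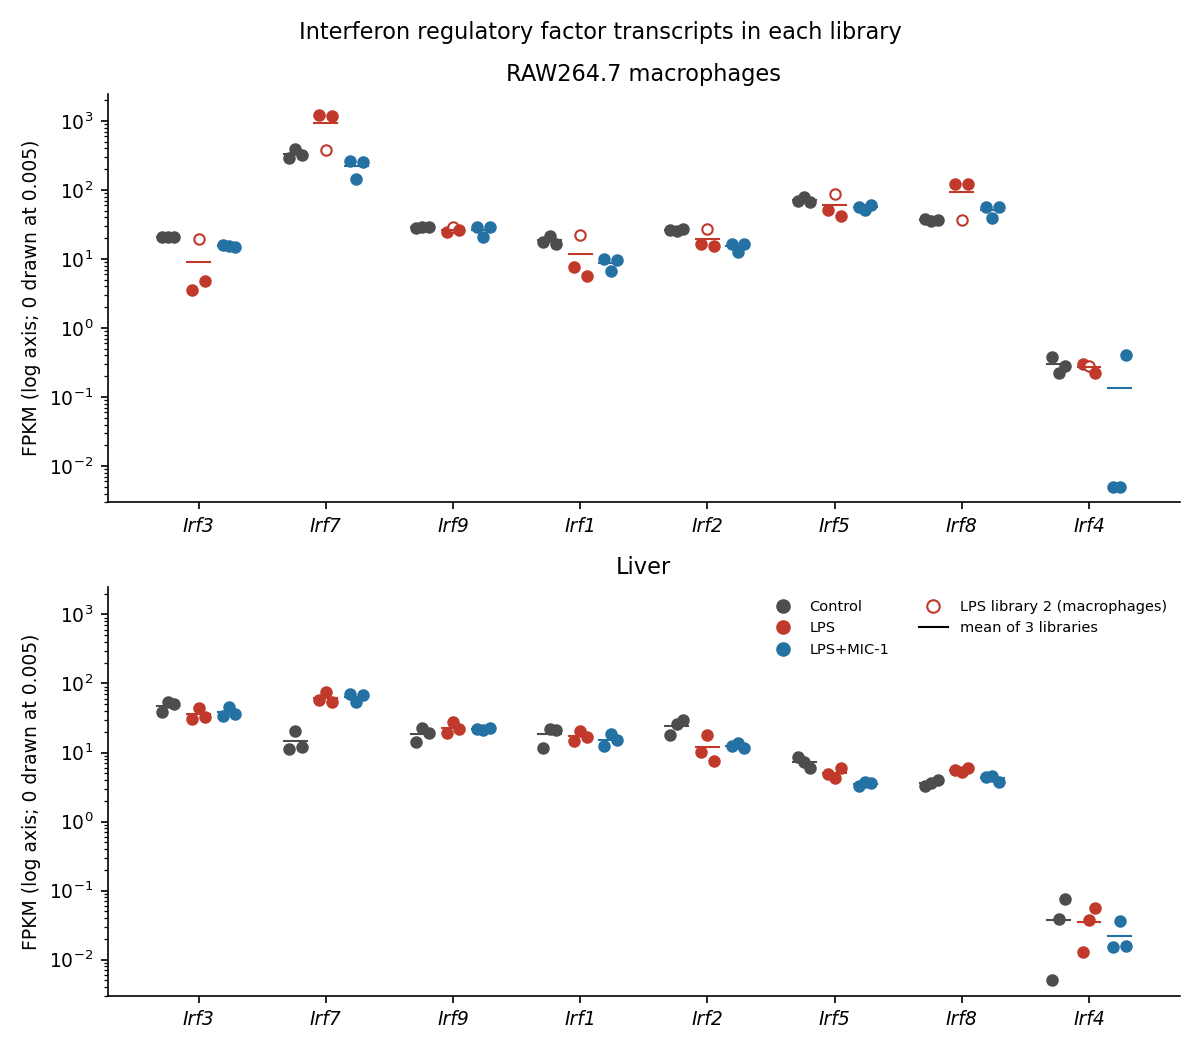
FPKM of the 8 family genes in each of the 9 macrophage libraries (top) and 9 liver libraries (bottom), on a log axis, with points for single libraries, short lines for the mean of 3 libraries, the open symbol for macrophage LPS library 2, and zeros drawn near the bottom of the axis. Irf7 reached 1211 FPKM in LPS macrophages and 76.1 FPKM in LPS liver, and Irf4 stayed at or below 0.400 FPKM in macrophages and 0.075 FPKM in liver.

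With all 9 libraries the Irf7 difference between LPS and control macrophages was 1.31 ± 0.46 (SE) on the log2(FPKM + 0.5) scale, with an adjusted p of 0.0777 (limma, Benjamini-Hochberg over 9905 genes). A call in macrophages needed an adjusted p below 0.01 and an absolute log2 difference above 1. No family gene and none of the 9905 genes was called in this comparison (0.0% of genes), although 3 family genes and 4928 genes had an unadjusted p below 0.05. Without LPS library 2 the Irf7 difference was 1.87 ± 0.25 (adjusted p = 0.000263, limma), and Irf7 was 1 of 4 family genes called, with Irf7 and Irf8 higher and Irf1 and Irf3 lower, where 34.2% of all tested genes were called (16.3% higher and 17.9% lower). Scaling the FPKM of every library to a common total in addition, a setting added after seeing the data that moved the median of all genes to -0.93, left Irf7 at 0.88, under the fold limit (adjusted p = 0.00992, limma). In that setting 5 family genes were called, Irf1, Irf2, Irf3, Irf5 and Irf9, all lower, where 5.02% of all genes were called higher and 46.1% lower. Between LPS+MIC-1 and LPS, Irf7 had the largest absolute difference of the 7 tested members in both fits. Its level with LPS and MIC-1 was below that of LPS alone by a log2 difference of -1.94 ± 0.46 with all libraries (adjusted p = 0.0231, limma) and of -2.50 ± 0.25 without LPS library 2 (adjusted p = 7.98e-05, limma). The LPS+MIC-1 libraries lay below all 3 LPS libraries, library 2 included. They were also below all 3 controls, but that difference, -0.63 ± 0.46, did not pass (adjusted p = 0.342, limma, and 0.0414 without LPS library 2).

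Irf3, which codes for the constitutively made partner of IRF7, lay on the other side of control in LPS libraries 1 and 3. It measured 21.1, 20.7 and 20.8 FPKM in controls, 3.51, 19.3 and 4.72 FPKM with LPS, and 16.1, 15.6 and 15.0 FPKM with LPS and MIC-1. The controls were nearly equal, all 3 LPS libraries were below them, and LPS libraries 1 and 3 were the lowest of the 9. The LPS difference was -1.52 ± 0.51 with all libraries (adjusted p = 0.0777, limma) and -2.22 ± 0.11 without library 2 (adjusted p = 2.39e-06, limma). Between LPS+MIC-1 and LPS it was 1.10 ± 0.51 (adjusted p = 0.15, limma), and 1.81 ± 0.11 without library 2 (adjusted p = 8.9e-06, limma). Without library 2, Irf3, Irf7 and Irf8 were the 3 family genes called between LPS+MIC-1 and LPS, against 23.3% of all tested genes. With all libraries none was called, against 3.87%. Irf3 with LPS and MIC-1 remained below the controls in every library, with a difference of -0.41 ± 0.51 (adjusted p = 0.585, limma, and 0.00798 without library 2, below the fold limit).

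The ratio of the 2 transcripts within a library does not depend on how the libraries were scaled. Irf7 exceeded Irf3 in control macrophages by a factor of 16.0 ± 2.53 (SD, n = 3). It exceeded Irf3 by 345 and 254 in LPS libraries 1 and 3, by 19.5 in LPS library 2, and by 14.2 ± 4.28 (SD, n = 3) with LPS and MIC-1. The LPS+MIC-1 libraries ranged from 9.31 to 17.2 and the controls from 13.9 to 18.8, so these groups overlapped. With 3 libraries against 3 an exact permutation test cannot give a p below 0.1, and no test was run on the ratios.

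**Figure D2:**
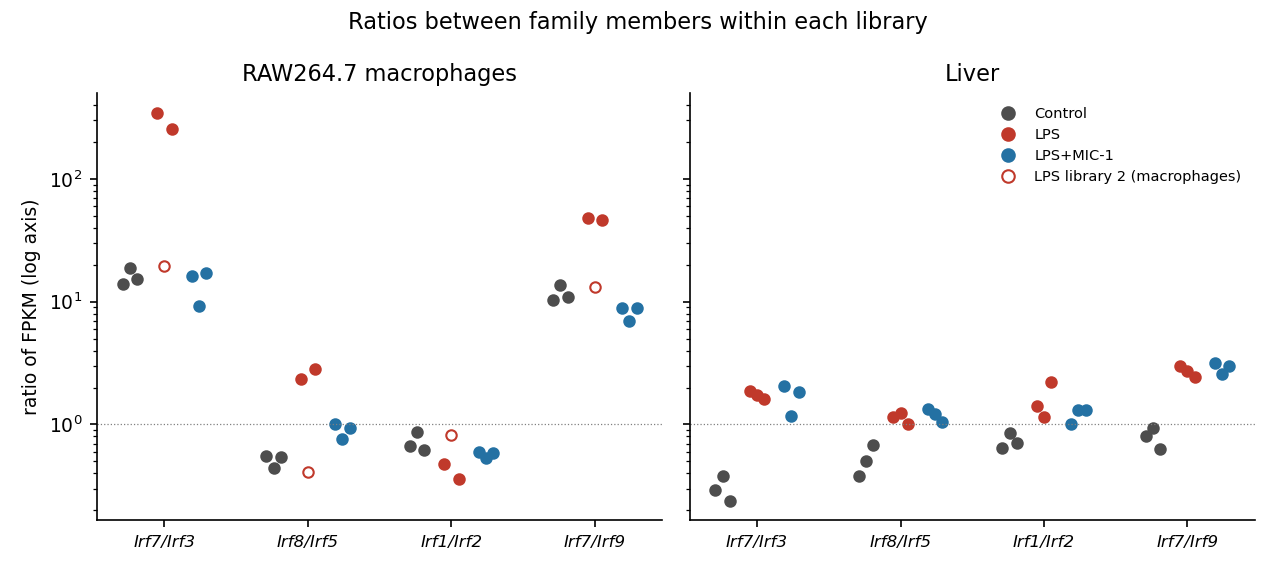
Ratios of FPKM between pairs of family members within each library, on a log axis, for macrophages (left) and liver (right); points are single libraries, the open symbol is macrophage LPS library 2, and the dotted line marks equal abundance. Irf7/Irf3 was 254 and 345 in macrophage LPS libraries 1 and 3 and between 9.31 and 19.5 in the other macrophage libraries, and it crossed from below 1 in control liver to above 1 in treated liver.

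Irf9, the DNA-binding subunit of the interferon-activated complex, had the smallest LPS difference of the 7 tested members in macrophages on the deposited scale, with and without LPS library 2. It measured 28.4, 28.6 and 28.9 FPKM in controls, 25.0, 28.7 and 26.0 FPKM with LPS, and 28.9, 20.8 and 29.2 FPKM with LPS and MIC-1. The ranges of the 3 conditions overlapped, although LPS libraries 1 and 3 and the second LPS+MIC-1 library lay below the controls. The LPS difference was -0.11 ± 0.15 (adjusted p = 0.555, limma) and -0.16 ± 0.14 without LPS library 2, but -1.14 with the common total in addition, a call (adjusted p = 0.000127, limma). Its LPS+MIC-1 against LPS difference of -0.03 was above 0 without library 2 and with the common total. Stat2, which codes for a partner of IRF9 in that complex, differed by -0.64 ± 0.39 between LPS and control (adjusted p = 0.206, limma). Without library 2 the Stat2 difference was -1.05 ± 0.30 (adjusted p = 0.0133, limma), not a call, and with the common total in addition it was -2.01, a call (adjusted p = 0.000301, limma).

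Irf1, an interferon-gamma and NF-κB inducible activator, was lower in treated macrophages, and so, by less, was its antagonist Irf2. Irf1 measured 17.6, 21.9 and 16.7 FPKM in controls, 7.68, 22.3 and 5.59 FPKM with LPS, and 10.1, 6.71 and 9.80 FPKM with LPS and MIC-1. Apart from LPS library 2, which held the highest value of all, every treated library was below every control. The LPS difference was -0.87 ± 0.44 (adjusted p = 0.139, limma), and Irf1 fell by 1.44 without library 2 (log2 scale, SE 0.21, adjusted p = 0.00041, limma). Against control, LPS+MIC-1 differed by -1.05 ± 0.44 (adjusted p = 0.118, limma). In this comparison 0 of 7 family genes were called, against 5.59% of tested genes. Irf1 was the only family gene called in it without LPS library 2 (adjusted p = 0.00192, limma), against 15.7%. Irf2 measured 26.5, 25.4 and 27.2 FPKM in controls, 16.2, 26.9 and 15.6 FPKM with LPS, and 16.7, 12.5 and 16.6 FPKM with LPS and MIC-1. Its LPS+MIC-1 libraries lay below the controls without overlap, with a difference of -0.78 ± 0.22 that stayed under the fold limit (adjusted p = 0.0345, limma). Neither gene was called between LPS+MIC-1 and LPS with all libraries or without library 2. The Irf1 difference between these groups was -0.18 ± 0.44 with all libraries and 0.39 ± 0.21 without library 2, and thus changed sign. With the common total in addition Irf1 was at 1.13, a call, where 36.2% of all genes were called higher. The Irf2 difference between LPS+MIC-1 and LPS was -0.31 with all libraries and turned positive with the common total.

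Irf8, which works with PU.1 to set the monocyte and macrophage program, was the other member that was higher in LPS libraries 1 and 3 than in any other macrophage library. It measured 38.3, 35.0 and 36.3 FPKM in controls, 123, 36.5 and 121 FPKM with LPS, and 56.1, 38.9 and 56.8 FPKM with LPS and MIC-1. LPS libraries 1 and 3 were the highest of the 9, LPS library 2 was among the controls, and the LPS+MIC-1 libraries lay just above the controls without overlap. The LPS difference was 1.15 ± 0.43 (adjusted p = 0.0787, limma), and Irf8 rose by 1.73 ± 0.16 without library 2 (adjusted p = 3.06e-05, limma). With the common total in addition it was 0.74, under the fold limit (adjusted p = 0.00289, limma). LPS+MIC-1 against LPS gave -0.71 ± 0.43 (adjusted p = 0.261, limma) and -1.28 ± 0.16 without library 2 (adjusted p = 0.000211, limma), a call that was lost at -0.48 with the common total in addition (adjusted p = 0.0250, limma). Against control, LPS+MIC-1 gave 0.44 ± 0.43 (adjusted p = 0.482, limma, and 0.0256 without library 2). Irf5, a mediator of MyD88-dependent cytokine transcription, measured 69.1, 79.1 and 67.0 FPKM in controls, 52.0, 88.8 and 42.6 FPKM with LPS, and 55.8, 51.0 and 60.8 FPKM with LPS and MIC-1. Its LPS difference was -0.30 ± 0.25 (adjusted p = 0.336, limma) and -0.60 ± 0.12 without library 2, below the fold limit in both, and -1.58 with the common total in addition, a call (adjusted p = 3.93e-06, limma). The Irf5 difference between LPS+MIC-1 and LPS was -0.06, and it changed sign to 0.24 without library 2. With the common total in addition it was 1.04, a call, where 36.2% of all genes were called higher. Irf8 was less abundant than Irf5 in controls, at a ratio of 0.513 ± 0.0616 (SD, n = 3), and more abundant in LPS libraries 1 and 3, at 2.36 and 2.84, with 0.411 in library 2 and 0.900 ± 0.124 with LPS and MIC-1.

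Irf4, known from lymphocytes and alternatively activated macrophages, was under the filter in both tables and close to the limit of detection in liver. It was listed at 0.379, 0.225 and 0.286 FPKM in control macrophages, 0.298, 0.286 and 0.220 FPKM with LPS, and 0, 0 and 0.400 FPKM with LPS and MIC-1. The nonzero macrophage values correspond to about 14.8 to 41.5 reads each, and LPS+MIC-1 held a pair of listed zeros beside its highest value, so no fold is given. In liver every library held about 4 reads or fewer (0 to 0.075 FPKM), and no difference was detectable at that depth.

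The order of abundance in control macrophages was Irf7, Irf5, Irf8, Irf9, Irf2, Irf3, Irf1 and Irf4 by mean FPKM, from 332 ± 49.9 through 71.7 ± 6.47, 36.5 ± 1.69, 28.6 ± 0.24, 26.4 ± 0.888, 20.8 ± 0.200 and 18.7 ± 2.77 to 0.297 ± 0.0778 (SD, n = 3). The lowest Irf9 value was above the highest Irf2 value, and Irf3 and Irf1 overlapped. In control liver the order was Irf3, Irf2, Irf9, Irf1, Irf7, Irf5, Irf8 and Irf4, and the values of Irf2, Irf9, Irf1 and Irf7 overlapped in a chain between 11.4 and 29.6 FPKM. Irf7 made up 61.9% ± 2.80 of the summed family FPKM in control macrophages and 55.4% ± 4.74 with LPS and MIC-1, and 10.8% ± 2.41, 38.6% ± 1.63 and 39.9% ± 5.64 in control, LPS and LPS+MIC-1 livers (SD, n = 3 each). With LPS, macrophage libraries 1 and 3 averaged 84.5% and library 2 held 62.8%. These orders compare genes within a table, since the tables were normalized separately.

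**Figure D3:**
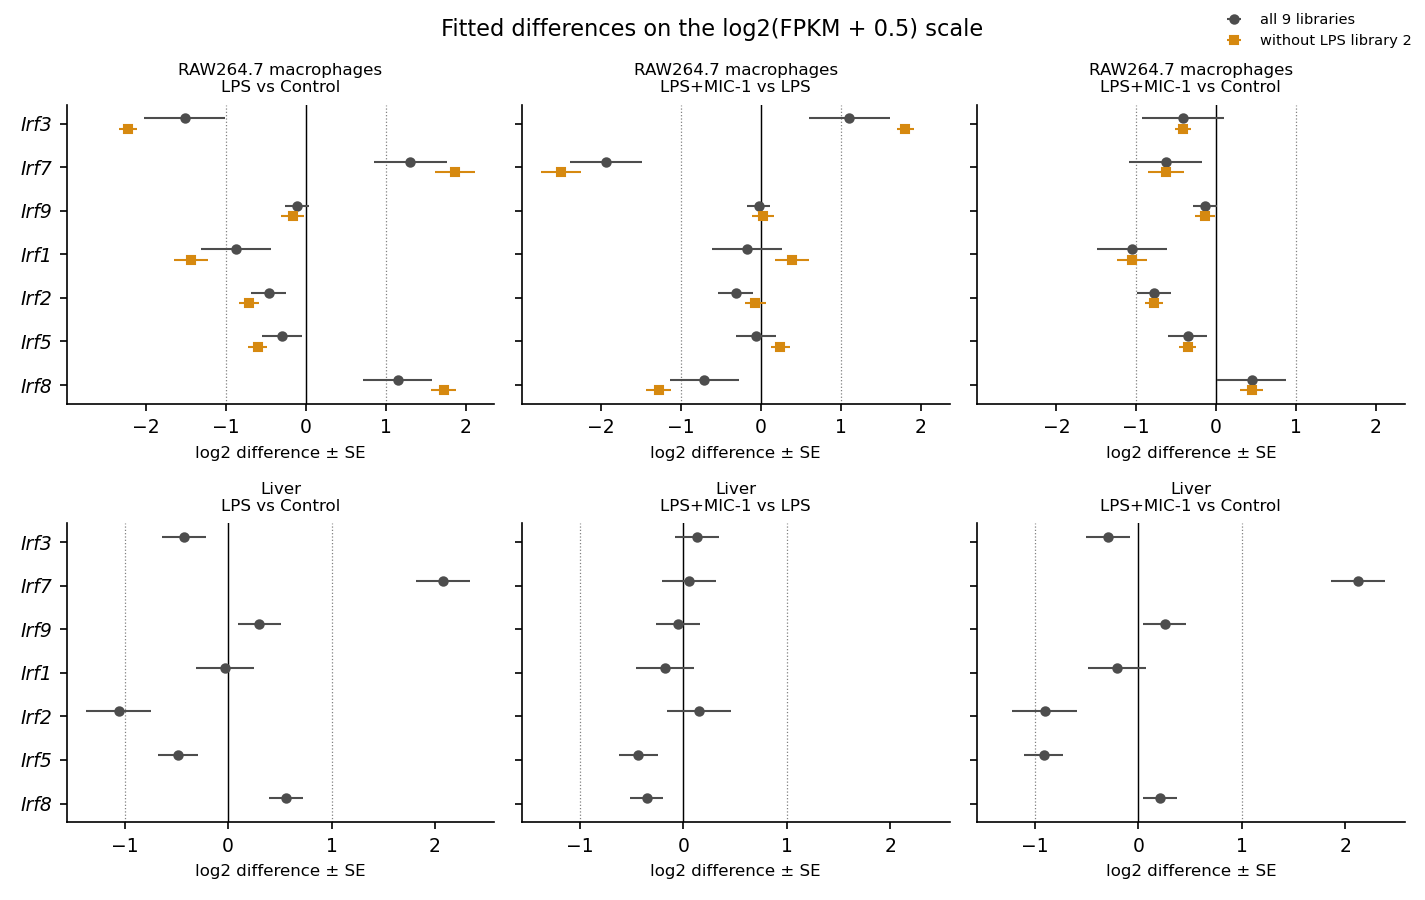
Fitted log2 differences with standard errors for the 7 tested family genes in 3 comparisons, in macrophages (top row) and liver (bottom row); circles use all 9 libraries, squares leave out macrophage LPS library 2, and dotted lines mark an absolute difference of 1. Irf7 lay above 1 for LPS against control in both tables, and for LPS+MIC-1 against control it lay at -0.63 in macrophages and at 2.12 in liver.

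In liver, Irf7 stood out in a different way, being higher after LPS whether or not MIC-1 was given. It measured 11.4, 20.7 and 12.1 FPKM in saline livers, 56.9, 76.1 and 53.3 FPKM after LPS, and 70.3, 54.4 and 67.2 FPKM after LPS and MIC-1. The treated groups overlapped each other and were both above all controls. A call in liver needed an adjusted p below 0.05 and an absolute log2 difference above 1. Irf7 rose by 2.07 ± 0.26 with LPS (adjusted p = 0.00182, limma, over 10147 genes) and by 2.12 ± 0.26 with LPS and MIC-1 against control (adjusted p = 0.00158, limma). It was 1 of 2 family genes called for LPS against control, where 24.6% of genes were called, and the only one called for LPS+MIC-1 against control, where 25.2% were. Both comparisons share the same 3 control livers. Between LPS+MIC-1 and LPS the Irf7 difference was 0.05 ± 0.26 (adjusted p = 0.997, limma), and it was -0.24 with the common total. In whole liver, more cells that express a gene and more RNA per cell cannot be told apart. Neutrophil markers, 5 of the 6 fixed and all above 0 in some library, summed to 35.3 to 51.5 FPKM in controls, 318 to 390 FPKM after LPS and 180 to 433 FPKM after LPS and MIC-1. Of these, S100a8, S100a9, Retnlg and Mmp8 were higher in every treated liver than in any control. Cxcr2, most of the control sum, went the other way, from 26.5 to 42.6 FPKM in controls to 3.89 to 10.1 and 3.60 to 7.79 FPKM. Macrophage markers summed to 19.9 to 38.5, 48.3 to 57.9 and 32.2 to 73.0 FPKM, mostly Lyz2. Lyz2 and Itgam were higher in every LPS liver than in any control, and Csf1r, Emr1 and Fcgr1 overlapped. Kupffer cell markers summed to 29.2 to 51.0, 36.9 to 53.9 and 50.9 to 96.05 FPKM. Of these, Clec4f read 13.0 to 30.1 FPKM in controls and 2.855 to 6.32 FPKM after LPS. Vsig4 was also lower after LPS, Marco was higher, and Timd4 and Cd5l overlapped. The part of neutrophils, macrophages and Kupffer cells in the Irf7 difference was not tested.

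Irf2 was the other liver call, and in the opposite direction. It measured 18.0, 25.8 and 29.6 FPKM in controls, 10.3, 18.1 and 7.64 FPKM after LPS, and 12.4, 13.9 and 11.5 FPKM after LPS and MIC-1. LPS library 2 just overlapped the lowest control, and the LPS+MIC-1 livers were all below the controls. Irf2 fell by 1.06 on the log2 scale with LPS (SE 0.31, adjusted p = 0.0318, limma). The call was kept in 3 of the 9 fits that left out 1 library, with adjusted p from 0.00374 to 0.114. It was lost without control library 2 or 3, without LPS library 1 or 3 (log2 difference -0.99 and -0.79), and without LPS+MIC-1 library 1 or 3. Without LPS library 2, which stood apart, Irf2 fell by 1.39 (adjusted p = 0.00374, limma) and Irf7 rose by 1.92 (adjusted p = 0.00177, limma). Against control, LPS+MIC-1 gave -0.91 ± 0.31 (adjusted p = 0.0508, limma). Irf1 measured 11.6, 22.1 and 21.1 FPKM in controls, 14.5, 20.7 and 16.9 FPKM after LPS, and 12.6, 18.4 and 15.1 FPKM after LPS and MIC-1. The 3 groups overlapped and the LPS difference was -0.03 ± 0.28 (adjusted p = 0.940, limma). The ratio of Irf1 to Irf2 was 0.737 ± 0.107 in controls, 1.59 ± 0.557 after LPS and 1.21 ± 0.174 after LPS and MIC-1 (SD, n = 3 each), with every treated liver above 1 and every control below it. In macrophages the same ratio was 0.714 ± 0.131 in controls, 0.473, 0.828 and 0.358 in LPS libraries 1 to 3, and 0.577 ± 0.0339 with LPS and MIC-1.

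Irf3 in liver measured 39.2, 54.0 and 50.5 FPKM in controls, 30.5, 43.5 and 32.7 FPKM after LPS, and 33.9, 46.1 and 36.7 FPKM after LPS and MIC-1. The groups overlapped, and the LPS difference was -0.43 ± 0.21 (adjusted p = 0.147, limma). The Irf7 to Irf3 ratio was 0.305 ± 0.0730 in controls, 1.75 ± 0.118 after LPS and 1.70 ± 0.464 after LPS and MIC-1 (SD, n = 3 each), so Irf7 was the rarer transcript in every control liver and the more abundant one in every treated liver. Irf9 ranged from 14.2 to 22.3 FPKM in controls, 19.1 to 27.6 FPKM after LPS and 21.1 to 22.4 FPKM after LPS and MIC-1. Its LPS difference was 0.30 ± 0.21 (adjusted p = 0.279, limma) and -0.05 with the common total, and the Irf7 to Irf9 ratio was 0.786 ± 0.149 in controls, 2.72 ± 0.273 after LPS and 2.92 ± 0.314 after LPS and MIC-1 (SD, n = 3 each).

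The myeloid members were scarce in liver. Irf8 measured 3.27, 3.64 and 4.01 FPKM in controls, 5.55, 5.29 and 5.93 FPKM after LPS, and 4.46, 4.59 and 3.79 FPKM after LPS and MIC-1. The LPS livers were above all others. The LPS difference of 0.56 ± 0.16 passed on p but not on fold (adjusted p = 0.0286, limma), and LPS+MIC-1 against LPS gave -0.35 ± 0.16 (adjusted p = 0.997, limma). Irf5 measured 8.54, 7.19 and 5.94 FPKM in controls, 4.86, 4.27 and 5.92 FPKM after LPS, and 3.31, 3.75 and 3.60 FPKM after LPS and MIC-1. Its 3 groups stepped down without overlap, the first step only by the margin between 5.94 and 5.92 FPKM. LPS+MIC-1 against control differed by -0.92 ± 0.19 (adjusted p = 0.00848, limma), again below the fold limit. B cell markers (4 of 4 measured) summed to 3.13 to 3.88 FPKM in controls and 0.260 to 1.25 FPKM after LPS, dendritic cell markers (5 of 5) to 4.27 to 5.01 and 1.25 to 2.90 FPKM, and T cell markers (4 of 4) to 10.7 to 15.6 and 2.35 to 5.75 FPKM. Xcr1 made up most of the dendritic cell sum in controls, at 3.43 to 4.16 FPKM, and read 0.538 to 1.81 FPKM after LPS. Itgax and Zbtb46 overlapped between these groups. Cd3d made up most of the T cell sum in controls, at 9.16 to 13.1 FPKM, and read 1.57 to 5.17 FPKM after LPS. Cd3e, Cd3g and Cd2 overlapped between these groups. The part of B, dendritic and T cells in the Irf5 and Irf8 values was not tested.

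Between LPS+MIC-1 and LPS livers, 0 of 7 family genes and 0 of 10147 genes were called by limma (0.0% of genes). At an unadjusted p below 0.05 there were 364 genes, and no family gene was among them. The groups did not overlap for Irf5 and Irf8, 2 of 7 family genes against 9.75% of all tested genes. For LPS against control liver, 3 family genes did not overlap, Irf5, Irf7 and Irf8, against 45.0% of tested genes. For LPS+MIC-1 against control liver these were Irf2, Irf5 and Irf7, against 54.6%. In macrophages 1 of 7, Irf3, did not overlap between all LPS libraries and controls, against 33.3%, and all 7 did not overlap without LPS library 2, against 85.6%. Between LPS+MIC-1 and LPS it was 1 of 7, Irf7, against 36.1%, and 3 of 7 without LPS library 2, against 80.3%. Between LPS+MIC-1 and control it was 6 of 7, all but Irf9, against 66.4%.

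The genes around the family were read from fixed lists. None of the 10 type I and II interferon genes passed the filter. Ifnb1, coding for interferon-beta and a direct target of IRF3 and IRF7, was listed at 0.137, 0.075 and 0.284 FPKM in control macrophages, 1.19, 0.374 and 0.893 FPKM with LPS, and 0, 0.331 and 0.098 FPKM with LPS and MIC-1. The highest values were in the LPS libraries with the highest Irf7. In liver it was listed at 0 in 7 of 9 libraries.

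Of 28 tested interferon-stimulated targets, 17 rose and none fell in liver after LPS, with a median log2 difference of 1.84 against 0.15 for all genes (13.4% of all genes were called higher). Isg15, a ubiquitin-like protein, rose by 2.70 ± 0.27 (adjusted p = 0.000709, limma), Cxcl9, a T cell chemokine, by 5.47 ± 0.53 (adjusted p = 0.000609, limma), and Gbp2, a guanylate-binding protein, by 4.76 ± 0.67 (adjusted p = 0.00283, limma). After LPS and MIC-1, 14 of the 28 were called above control and none below, with a median of 1.47 (13.8% of all genes were called higher). Against LPS none was called, as for all genes (0.0%). There 24 of the 28 differences were below 0, with a median of -0.29. Of all 10147 genes, 5183 were below 0, with a median of -0.0093. The 28 genes were measured in the same livers and are not independent. In macrophages without LPS library 2, 5 targets rose and 6 fell, a share near that of all genes (16.3% higher and 17.9% lower), with a median of -0.44 against -0.02 for all genes. Rsad2, coding for viperin, rose by 2.60 ± 0.23 (adjusted p = 3.13e-05, limma) and Bst2, coding for tetherin, by 1.43 ± 0.13 (adjusted p = 2.93e-05, limma), whereas Cmpk2, a mitochondrial nucleotide kinase, fell by 2.98 on the same scale (SE 0.34, adjusted p = 0.000109, limma). With the common total in addition, 1 target rose and 16 fell (5.02% and 46.1% of all genes), Rsad2 and Cmpk2 were still called in the same directions, and Bst2 was not called, at 0.44. With all libraries, 3 targets of 28 fell between LPS+MIC-1 and LPS, where 1.81% of all genes did, and none did with the common total. These were the immunoproteasome subunits Psmb8 and Psmb9 and the peptide transporter Tap1, named after their values were seen, with differences of -1.10 ± 0.18, -1.63 ± 0.29 and -1.46 ± 0.26, and Psmb8 missed the fold limit without LPS library 2. Without that library 3 targets rose and 7 fell between LPS+MIC-1 and LPS, where 11.3% of all genes rose and 12.0% fell. With the common total in addition 9 rose and none fell, where 36.2% of all genes rose and 2.72% fell, so the direction of this list depends on the scaling.

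**Figure D4:**
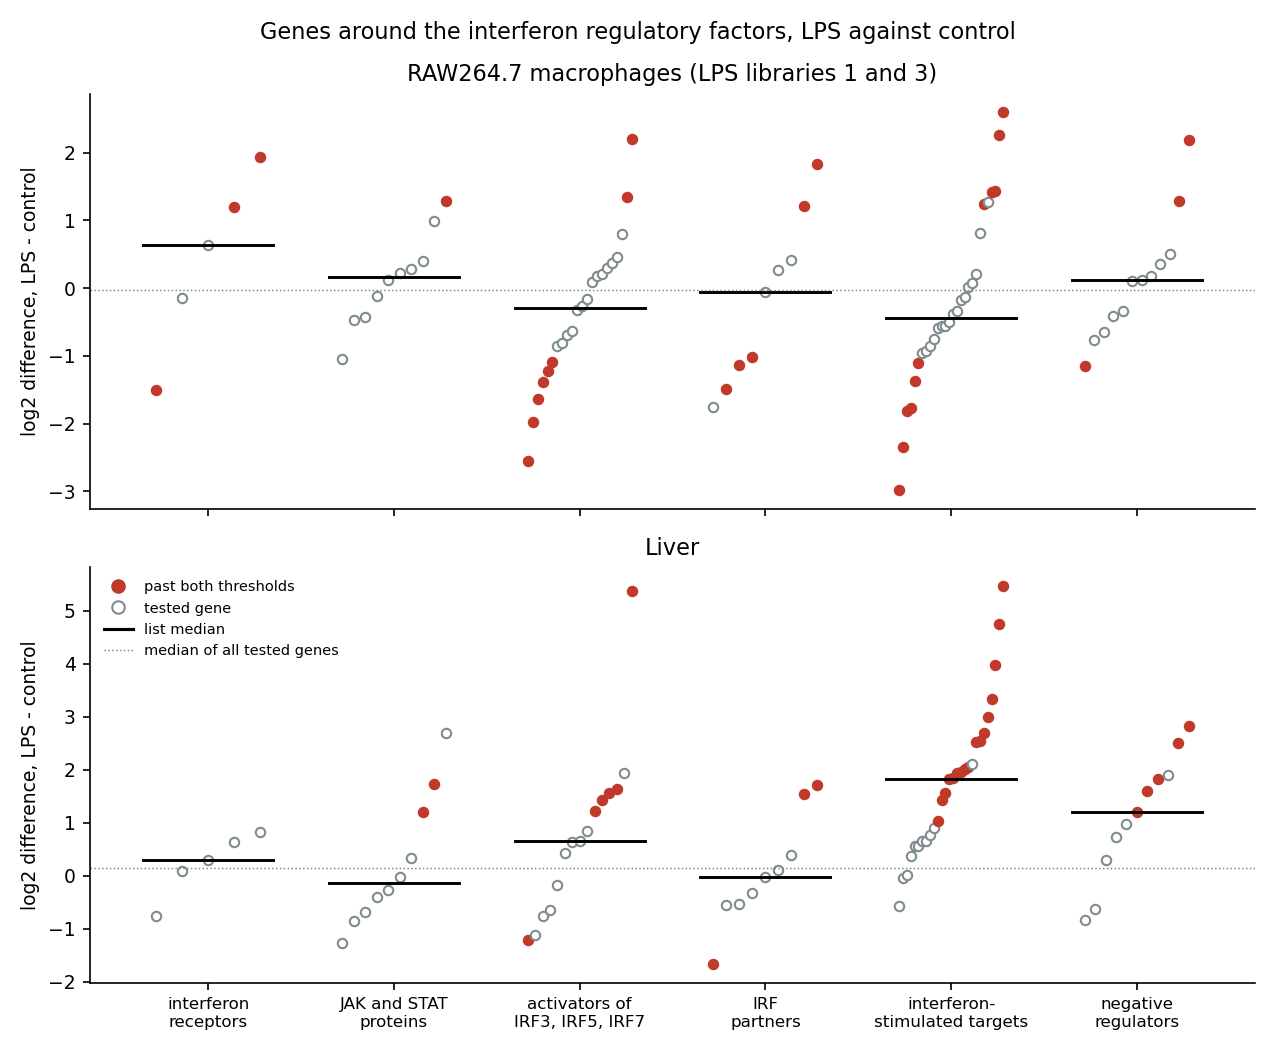
Log2 differences between LPS and control for every tested gene of 6 fixed lists, in macrophages without LPS library 2 (top) and in liver (bottom); filled points passed both thresholds, black bars are list medians and the dotted line is the median of all tested genes. On the deposited scale the interferon-stimulated targets lay on both sides of 0 in macrophages, with 5 called up and 6 called down, and mostly above 0 in liver, with 17 called up and none down.

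Upstream of the family, 22 of 23 activators of IRF3, IRF5 and IRF7 were tested in macrophages and 15 in liver. In macrophages without LPS library 2, 2 rose and 6 fell with LPS, against 16.3% and 17.9% of all genes, and with the common total in addition 1 rose and 13 fell, against 5.02% and 46.1%. Ticam1 and Tlr4 were called in both settings. Ticam1, the TRIF adaptor that links TLR4 to IRF3, read 9.89, 12.6 and 10.3 FPKM in controls and 53.4, 12.5 and 50.1 FPKM with LPS, and rose by 2.20 ± 0.11 (adjusted p = 2.34e-06, limma). Tlr4 itself read 9.34, 10.1 and 10.3 FPKM in controls, 1.11, 10.1 and 1.48 FPKM with LPS, and 13.4, 12.2 and 12.8 FPKM with LPS and MIC-1. It fell by 2.54 with LPS (SE 0.11, adjusted p = 1.38e-06, limma), and the LPS+MIC-1 libraries were above all controls. In liver 5 activators rose and 1 fell with LPS, against 13.4% and 11.2% of all genes, and 4 rose and 4 fell with the common total, against 7.85% and 18.2%. Cd14, the LPS co-receptor, rose by 5.38 ± 0.95 (adjusted p = 0.00578, limma), from 3.49 to 10.8 FPKM in controls to 84.2 to 569 FPKM after LPS. The other risers, named after their values were seen, were Myd88, Ticam1, Mavs and the IRF3 kinase Ikbke, and Tirap fell.

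Among receptors of interferon in macrophages, Ifnar2 rose by 1.94 ± 0.10 with LPS (adjusted p = 3e-06, limma) and Ifngr1 fell by 1.51 (SE 0.14, adjusted p = 3.26e-05, limma), both without LPS library 2. In that setting 2 of 5 tested receptors rose and 1 fell, against 16.3% and 17.9% of all genes. With the common total in addition Ifnar2 was at 0.95, under the fold limit. Ifngr1 was still called there, as 1 of 2 lower, against 46.1% of all genes. No receptor was called in liver after LPS, where 24.6% of all genes were. With the common total 1 was lower in liver, where 18.2% of all genes were. Of 10 tested JAK and STAT genes, 1 was called in macrophages with LPS without library 2, where 34.2% of all genes were, namely Jak2 at 1.29 ± 0.18 (adjusted p = 0.000319, limma). With the common total in addition Jak2 was not called, at 0.34, and 4 others were lower, where 46.1% of all genes were. In liver Stat3 rose by 1.74 ± 0.31 with LPS (adjusted p = 0.00566, limma).

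Partners of the family proteins were also measured. Spi1, listed as Sfpi1 and coding for PU.1, read 380 to 424 FPKM in control macrophages and 439 to 545 FPKM with LPS, a difference of 0.32 ± 0.12 (adjusted p = 0.0785, limma). The Sfpi1 difference was 0.42 without LPS library 2 and turned to -0.57 with the common total in addition, neither past the fold limit. In liver it rose by 1.55 ± 0.21 with LPS (adjusted p = 0.00242, limma). Batf, a partner of IRF4 and IRF8, rose in liver by 1.71 ± 0.27 (adjusted p = 0.00425, limma) and stayed below 1 FPKM in macrophages. Irf2bp2, a corepressor of IRF2, rose in macrophages by 1.83 ± 0.12 with LPS without library 2 (adjusted p = 6.55e-06, limma; 0.85 and not called with the common total in addition) and was lower by a difference of -1.89 ± 0.12 with MIC-1 added (adjusted p = 9.68e-06, limma). Its liver difference with LPS was -0.02 ± 0.16. Negative regulators of interferon signaling were called up in 5 of 11 cases and down in none in liver with LPS, against 13.4% and 11.2% of all genes. Among the 5 were Socs3 at 2.51 ± 0.26 (adjusted p = 0.000742, limma) and Tnfaip3 at 2.83 ± 0.63 (adjusted p = 0.0121, limma). With the common total 4 regulators were called up and 1 down, against 7.85% and 18.2% of all genes.

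Alternative activation genes linked to IRF4 were mostly under the filter in macrophages, where 3 of 10 were tested. Il4ra, the interleukin 4 receptor chain, rose there by 2.35 ± 0.21 with LPS without library 2 (adjusted p = 3.02e-05, limma). In liver 4 of 7 tested genes rose and 1 fell with LPS, against 13.4% and 11.2% of all genes. With the common total 3 rose and 2 fell, against 7.85% and 18.2% of all genes. Chi3l3 rose by 4.19 ± 0.51 (adjusted p = 0.00159, limma) and Arg1, which hepatocytes also express strongly for the urea cycle, by 1.44 ± 0.28 (adjusted p = 0.00757, limma).

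Finally, the genes whose log2 pattern over the 9 libraries of a table was most like each member were listed as a description. In macrophages Irf7 was closest to Vwa5a (Pearson r = 0.999) and Irf3 to Asb8 (r = 0.999), Irf8 to Malt1 (r = 0.997) and Irf2 to Gm5150 (r = 0.995). In liver Irf7 was closest to Cd300e (r = 0.990), Irf2 to Park2 (r = 0.989), Irf9 to Clec12a (r = 0.977) and Irf8 to Irg1 (r = 0.963). The 9 points share 3 conditions and, in macrophages, the distance of LPS libraries 1 and 3 from the rest.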

How the data were processed

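Reads from BGI were quantified by the authors against a RefSeq mm9 index with Kallisto 0.45.0 and summed to genes with tximport. The authors then made the FPKM values with DESeq2 1.20.0 and deposited 1 FPKM table for macrophages and 1 for liver, which were used here. The other deposited tables hold the authors' own comparisons (fold changes and p-values) and were not used.

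FPKM are not counts, so limma 3.58.1 (R 4.3.3) was fitted on log2(FPKM + 0.5) over all 3 conditions of a table, with an intensity trend, for genes with a mean above 1 FPKM, and p-values were adjusted over all genes tested. Differences on this scale understate the change of low genes. Reads per library were estimated from the step that 1 read makes in low FPKM values: 83.8% to 88.5% of low values lay within 0.15 of a whole read, too few to recover counts. The fit was tested on simulated data. Each setting that could change a call (pseudocount, filter, scaling, trend, thresholds, 1 library left out) was varied in turn. The members, lists, tests and settings were chosen with earlier results of these data known. All family genes are named, and of each list and table the 2 genes with the highest mean FPKM and the 2 with the largest LPS difference could be named, plus Ifnb1, Stat2, Spi1 and Batf, and 1 further gene that is not reported here; for likeness, the 2 genes with the highest Pearson r. Others are said to have been chosen after their values were seen. Nothing in the sources says that the 3 macrophage libraries of a condition are separate cultures, so their p-values may measure technical spread. Cd68 and Ly6g, 2 of the fixed markers, were not analysed here.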

Additional observations from a re-analysis of the deposited data

Results flagged for a closer look

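Irf7 in LPS+MIC-1 against control pointed in opposite directions in the 2 tables. Its log2 difference was -0.63 in macrophages, where all 3 LPS+MIC-1 libraries (145 to 259 FPKM) lay below all 3 controls (292 to 388 FPKM). It was 2.12 in liver, where all 3 LPS+MIC-1 libraries (54.4 to 70.3 FPKM) lay above all 3 controls (11.4 to 20.7 FPKM). The macrophage difference did not pass the threshold, and the difference between the tables was not tested, since they were normalized separately and differ in dose and route.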

How the results depend on the processing

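No paired analysis was possible because the columns carry no replicate numbers. Of 858 values of single family genes under alternative settings, 784 kept direction and side of the threshold, 34 became calls in the same direction, 8 lost a call and 32 changed sign, none of them a call with all libraries. Leaving out 1 library gave 0 to 4 calls for LPS against control in macrophages, 0 to 3 for LPS+MIC-1 against LPS and 0 to 1 for LPS+MIC-1 against control. In liver it gave 1 to 2, 0 to 0 and 1 to 2. The highest macrophage counts came without LPS library 2, where 34.2%, 23.3% and 15.7% of all genes were called. Without that library and with a common FPKM total per library, the counts were 5, 4 and 1. There 5.02% of all genes were called higher and 46.1% lower in the first comparison, and 36.2% and 2.72% in the second. The 4 between LPS+MIC-1 and LPS were Irf1, Irf3 and Irf5, higher, and Irf7, lower. Without that library and with median-of-ratios scaling the counts were 4, 3 and 1. Both settings were added after seeing the data. Shares of all genes for their other counts are not given here. The common total moved the median of all genes to -0.93 for LPS against control and 0.74 for LPS+MIC-1 against LPS, since LPS libraries 1 and 3 hold up to 1137533 summed FPKM against 557136 in the lowest control. There the Irf7 and Irf8 differences with LPS were 0.88 and 0.74, under the fold limit, Irf1, Irf2, Irf5 and Irf9 in LPS+MIC-1 against LPS turned to 1.13, 0.71, 1.04 and 0.81, and Irf2 fell by 1.67 with LPS. With all libraries and the common total these 4 were 0.276, 0.162, 0.429 and 0.455, and without LPS library 2 under median of ratios Irf1, Irf5 and Irf9 were 0.392, 0.247 and 0.0314. In liver the common total turned Irf9 to -0.0541 for LPS against control, Irf2, Irf3 and Irf7 to -0.126, -0.155 and -0.236 for LPS+MIC-1 against LPS, and Irf8 and Irf9 to -0.375 and -0.387 for LPS+MIC-1 against control. Leaving out 1 library also turned signs: for LPS+MIC-1 against LPS in macrophages Irf1 ranged from -0.564 to 0.387, Irf5 from -0.283 to 0.242 and Irf9 from -0.112 to 0.129, and Irf9 against control from -0.22 to 0.0211. In liver Irf1 ranged from -0.319 to 0.13 for LPS against control, and Irf2 from -0.114 to 0.482, Irf7 from -0.0485 to 0.207 and Irf9 from -0.168 to 0.0911 for LPS+MIC-1 against LPS. In macrophages, an adjusted p below 0.05 called 1 gene, Irf7, for LPS+MIC-1 against LPS, and fitting only 2 groups called 1, Irf1, for LPS+MIC-1 against control. In liver LPS against control, 1 gene was called when only 2 groups were fitted and 1 at an adjusted p below 0.01; both lost Irf2. In liver LPS+MIC-1 against control, 3 were called with the common total, which adds Irf2 and Irf5, both lower. In that setting 535 of all genes were called higher and 2584 lower. Median of ratios also called 3, adding Irf2 and Irf5, and 2 were called without a fold limit, which adds Irf5. Shares of all genes for these last 2 settings are not given here. The common total moved the median of all liver genes to -0.18, -0.26 and -0.43 in the 3 comparisons, and left 16 and 11 interferon-stimulated targets higher in the first and the last. In macrophages without LPS library 2 it left 1 target higher and 16 lower with LPS. Over all genes, calls for LPS against control in macrophages numbered 0, and 3386 without LPS library 2. For LPS+MIC-1 against LPS they numbered 383 (204 higher, 179 lower), 295 higher and 48 lower with the common total, 2310 without LPS library 2, 823 at an adjusted p below 0.05, 617 without a fold limit, 5 with only 2 groups and 0 with libraries 1 and 3 averaged; for LPS+MIC-1 against control, 554 (324 higher, 230 lower), 294 higher and 83 lower, 1560, 1172, 866, 1541 and 0. In liver the common total turned 1356 higher and 1137 lower with LPS into 797 and 1851, and 1396 and 1164 with LPS and MIC-1 into 535 and 2584; an adjusted p below 0.01 left 1102 and 1370 calls. Leaving out 1 library gave 1227 to 3510 liver calls for LPS against control and 0 to 35 for LPS+MIC-1 against LPS, the most without LPS library 2; in macrophages, leaving out any library but LPS library 2 gave 109 to 264 calls for LPS+MIC-1 against LPS and 141 to 495 against control. The causes were not tested. Irf8 has no liver value with a filter of mean FPKM above 5. Depth limits Irf4 in liver, where it held about 4 reads or fewer in any library.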
